A study of Homo sapiens with 12 samples.

Results

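Most S100 genes encode small calcium sensors, and 10 S100 genes (S100A2, S100A4, S100A6, S100A8, S100A9, S100A10, S100A11, S100A13, S100A14 and S100A16) were followed here across 4 treatments of OVCAR-3 cells, an established line of human ovarian adenocarcinoma with a wild-type genotype, per the labels. The members were fixed by name, as the rows of the normalized count table with these symbols, 10 of 28035 genes listed, and all 10 were among the 15990 genes abundant enough to test. Each group had 3 libraries collected after 6 h. DMSO was the vehicle, FC-A was Fusicoccin A (a fungal diterpene glycoside that stabilises the binding of 14-3-3 adapter proteins to partner proteins), IFNa was interferon alpha (a secreted antiviral cytokine), and the Combination received both agents. The sources used here give no dose and do not say whether replicates were separate cultures. A p-value below therefore speaks only to the variation among these 12 libraries, some of which may be technical. The libraries held 31181742 to 39529357 reads assigned to genes. Values are reads divided by a size factor per library (normalized reads).

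S100 proteins are built from a pair of EF-hands, helix-loop-helix folds that in most members hold calcium. They mostly work as dimers that open a binding face when calcium rises and then grip a target such as an annexin, a myosin chain or a phospholipid-binding scaffold. Most human S100 genes lie side by side on chromosome 1 within the epidermal differentiation complex. S100A8 and S100A9, which pair as calprotectin, are abundant in neutrophils and monocytes, and are also made by inflamed epithelia, while S100A2, S100A4, S100A6, S100A10, S100A11, S100A14 and S100A16 are commonly expressed in carcinoma cells.

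All 10 genes were read in every library, and their levels spanned a wide range. Per kilobase of exon (the union of exons over a gene's GENCODE v29 basic transcripts, which are not the submitters' own annotation), the DMSO level was 26354 ± 1687 normalized reads for S100A6 (a membrane-associated S100 also called calcyclin; mean ± SD, n = 3), 21193 ± 457 for S100A11 (calgizzarin) and 13747 ± 962 for S100A10, the light chain that pairs with annexin A2. The order depends on these lengths. Before division, S100A10 (1258 bases) had 17294 normalized reads in DMSO and S100A11 (594 bases) 12588. S100A4, S100A2 and S100A9 followed at 10547 ± 667, 10156 ± 438 and 9949 ± 527 per kilobase, and the libraries of neighbours within this trio overlapped. S100A16 came next at 5153 ± 145, then S100A14 at 2568 ± 160.4, and S100A8 at 847 ± 169.8 and S100A13 at 703 ± 46.7 shared the lowest place with overlapping libraries. The order per kilobase was different with IFNa, where the libraries of S100A11 (27449 ± 542) and S100A6 (27806 ± 643) overlapped, and in the Combination, where the mean of S100A11 (28396 ± 968) lay above that of S100A6 (27865 ± 1431), again with overlap. With IFNa the means of S100A9, S100A2 and S100A4 followed in that order, S100A9 and S100A2 overlapping. With FC-A the order of means was that of DMSO, and S100A10 also overlapped S100A4. The S100A8 libraries were separated from those of S100A13 in the Combination and in no other group.

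With IFNa, 3 of the 10 genes passed the test against DMSO. S100A11 and S100A16 rose to 1.3 and 1.27 times the DMSO level, and S100A4 (metastasin, which binds non-muscle myosin) fell by a smaller amount. At an adjusted p under 0.05 (limma on log2 of the normalized value plus 1, Benjamini-Hochberg adjustment over all genes tested), IFNa against DMSO called 2 S100 genes higher, beside 25.4% of all genes tested, and 1 lower, beside 21.5%. A share of 3 in 10 was no higher than that of genes at large. With the replicate number added to the limma fit as a block, 6 members were called higher and 2 lower. That fit called 4588 of all 15990 genes higher and 4031 lower. The members' median log2 fold change was 0.17 beside -0.0065 for all genes. These counts and the sign of the median depended on scaling. With library totals 2 members were higher and 2 lower, with a median of -0.016. That scaling called 2386 of all 15990 genes higher and 6961 lower. After quantile normalization 0 members were higher and 4 lower (S100A2, S100A4, S100A6 and S100A14), with a median of -0.038. There 2975 of all 15990 genes were called higher and 5157 lower.

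**Figure D1:**
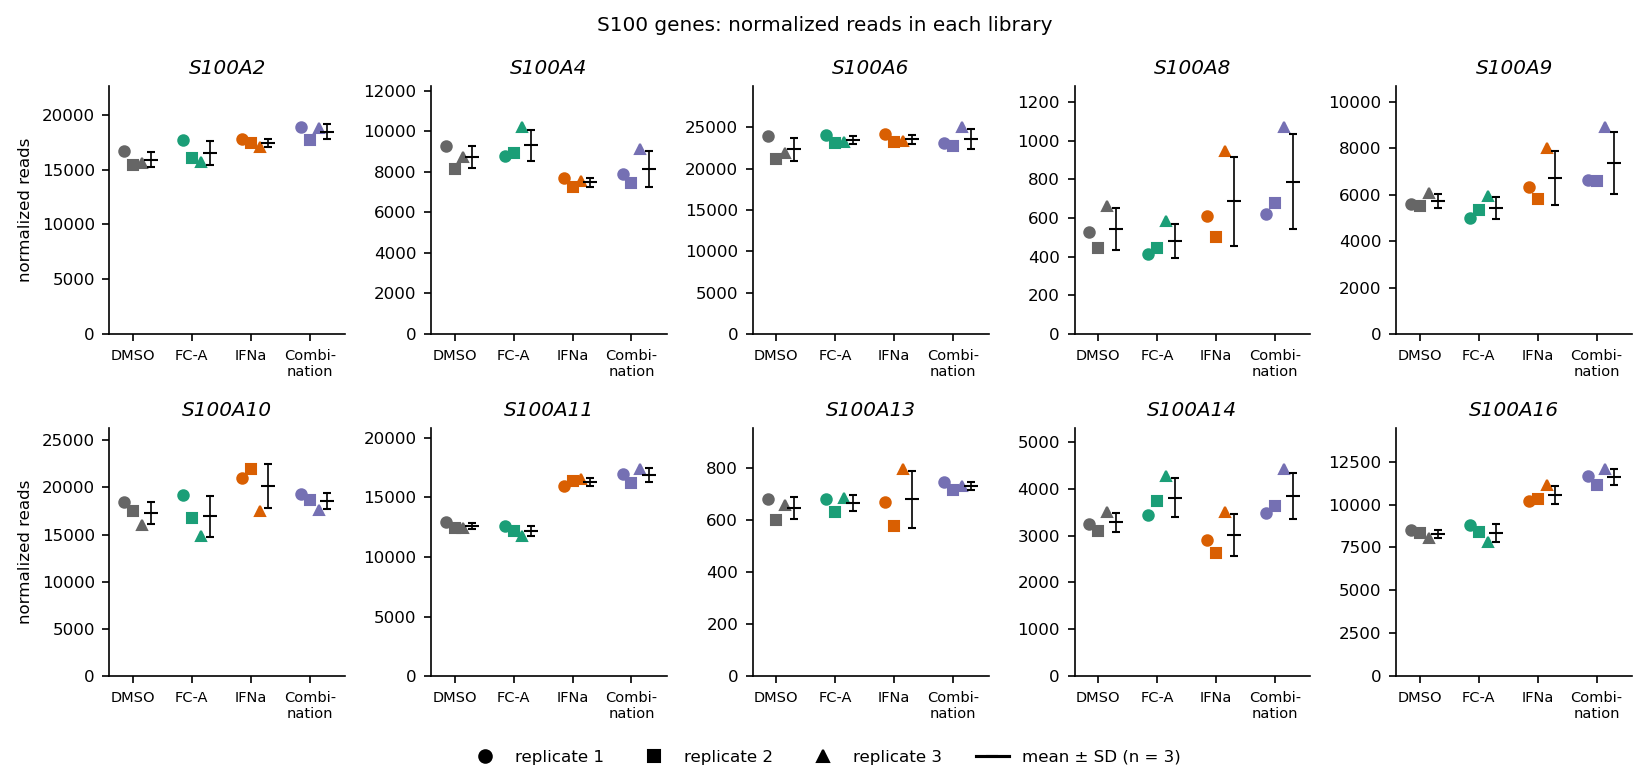
Normalized reads of each of the 10 S100 genes (vertical axes, each from 0) in the DMSO, FC-A, IFNa and Combination libraries, with a symbol for each replicate and the mean ± SD (n = 3) beside them. S100A11 and S100A16 show the 6 libraries that received IFNa above the 6 that did not, while S100A6 shows 4 overlapping groups.

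S100A11, a homodimeric S100 that binds annexins A1 and A2 and is found in the nucleus as well as at membranes, read 12900.1, 12403 and 12462 in the DMSO libraries, 12589.6, 12225 and 11728 with FC-A, 15943, 16411 and 16560.0 with IFNa and 17002, 16237 and 17363 in the Combination. The lowest library with IFNa lay above the highest library without it. IFNa against DMSO gave a log2 fold change of 0.37 (SE 0.0448, adjusted p = 1.03e-05), a 1.3-fold rise, and the Combination gave a log2 fold change of 0.42 (SE 0.0448, adjusted p = 2.67e-06) against DMSO and a log2 fold change of 0.47 (SE 0.0448, adjusted p = 8.91e-07) against FC-A. S100A16, a widely expressed S100 found in the nucleus and cytoplasm of epithelial cells, read 8533, 8336 and 8067 in DMSO, 8813, 8391 and 7819 with FC-A, 10224, 10330.1 and 11147 with IFNa and 11664, 11148 and 12057 in the Combination. Its 6 libraries with IFNa also lay above the other 6. The log2 fold change was 0.35 for IFNa against DMSO (SE 0.0542, adjusted p = 1.24e-04), 0.48 for the Combination against DMSO and 0.48 against FC-A, and both Combination contrasts were called. S100A11 and S100A16 were the only members with this separation upwards, 2 of 10 beside 21.8% of all genes tested. Each of these calls was kept when any 1 of the 12 libraries was left out.

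S100A4 read 9270.3, 8167 and 8730.0 in DMSO and 7679, 7247 and 7556 with IFNa, so that every IFNa library was below every DMSO library. Its log2 value fell by 0.22 (SE 0.0763, adjusted p = 0.0304). In the FC-A libraries it read 8798, 8938 and 10199.7 and in the Combination 7873, 7433 and 9117, where Combination replicate 3 stood inside the FC-A range. Against FC-A the Combination gave a log2 fold change of -0.20 (SE 0.0763, adjusted p = 0.0465), and against DMSO -0.10 (adjusted p = 0.284). The call for IFNa was lost on leaving out DMSO replicate 1 (log2 fold change -0.17, adjusted p = 0.126), DMSO replicate 3 (adjusted p = 0.0729), IFNa replicate 1 (0.0515) or IFNa replicate 2 (0.0907). The call against FC-A was lost in 8 of the 12 left-out fits, with adjusted p up to 0.203 (without Combination replicate 2), and in each of them the log2 fold change stayed at or below -0.13. DESeq2 did not call it against FC-A either (adjusted p = 0.0536), and a fit with no variance trend called S100A4 neither for IFNa against DMSO (adjusted p = 0.067) nor against FC-A (0.0912).

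The start regions of 5 of the 6 members called in at least 1 contrast are shown, S100A4 called lower and S100A11, S100A16, S100A8 and S100A9 called higher. The windows of S100A2, the other called member, held neither string marked below and are not printed. The 120 bases before a RefSeq start were taken for S100A11 (chr1:152037005-152037124, minus strand), S100A16 (chr1:153609356-153609475, minus strand), S100A4 (chr1:153545807-153545926, minus strand), S100A8 (chr1:153391074-153391193, minus strand) and S100A9 (chr1:153357734-153357853, plus strand), all in build GRCh38.p14 and written 5′ to 3′ along the gene, and the expression files name another build, hg19. Capitals mark a GC box (GGGCGG) or a TATA box (TATAAA), the letter strings usually bound by Sp family factors and by the TATA-binding protein.
S100A11: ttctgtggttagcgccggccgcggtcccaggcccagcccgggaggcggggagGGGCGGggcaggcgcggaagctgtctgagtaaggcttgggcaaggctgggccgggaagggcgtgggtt
S100A16: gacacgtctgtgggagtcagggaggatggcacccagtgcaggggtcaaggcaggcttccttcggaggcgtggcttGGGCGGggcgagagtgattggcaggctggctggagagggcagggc
S100A4: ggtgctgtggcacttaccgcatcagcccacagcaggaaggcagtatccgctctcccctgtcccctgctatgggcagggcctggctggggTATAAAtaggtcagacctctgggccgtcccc
S100A8: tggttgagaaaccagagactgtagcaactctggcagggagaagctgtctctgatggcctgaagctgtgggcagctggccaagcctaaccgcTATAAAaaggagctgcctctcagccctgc
S100A9: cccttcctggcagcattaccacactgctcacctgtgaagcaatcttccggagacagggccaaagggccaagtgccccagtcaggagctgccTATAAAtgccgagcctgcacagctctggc
S100A11 held a GC box 68 bases before its start and S100A16 one 45 bases before this start, and the S100A6 window held 3, of which a pair overlapped. S100A4 and S100A9, with 1 window each, held a TATA box 31 and 29 bases before the start, and 1 of the 3 windows of S100A8 and 1 of the 3 of S100A13 held one at 29. S100A16 had 2 windows, of which 1 held the GC box, and the windows printed for S100A8 and S100A16 are those with a match. S100A4, called lower, shared the TATA box with S100A8 and S100A9, called higher, and a tie of these strings to direction was not tested. All 10 members matched the table, with 16 windows in all. Searched on both strands, TATAAA was present in 5.63% and GGGCGG in 34% of the 35116 windows of this length over all genes. The interferon-stimulated response element searched as 2 runs of TTTC with any 2 bases between them (1.39% of all windows) and the gamma-activated sequence searched as TTCNNNGAA (2.83%) matched no S100 window, and the AP-1 string TGANTCA (3.34%) matched an S100A2 window. These are letter matches in short windows and say nothing of binding.

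Ratios between genes of the same library do not depend on any scaling that multiplies a whole library by 1 factor. Apart from S100A8 over S100A9, the pairs set S100A11 or S100A16, already separated above, over members called lower or not called for IFNa. Separation of these ratios therefore describes the same values again and is not independent support. How many pairs of genes at large separate in this way was not counted. The ratio of S100A11 to S100A4 reads was 1.39, 1.52 and 1.43 in DMSO, 1.43, 1.37 and 1.15 with FC-A, 2.08, 2.26 and 2.19 with IFNa and 2.16, 2.18 and 1.9 in the Combination. All 6 libraries with IFNa were above all 6 without, and the group means were 1.45 ± 0.0656, 1.32 ± 0.147, 2.18 ± 0.0949 and 2.08 ± 0.155. S100A11 relative to S100A6, the most abundant member per kilobase without IFNa, was 0.565 ± 0.0238 in DMSO, 0.519 ± 0.0121 with FC-A, 0.693 ± 0.0288 with IFNa and 0.715 ± 0.0203 in the Combination. S100A16 relative to its chromosomal neighbour S100A14 was 2.54 ± 0.209, 2.21 ± 0.364, 3.55 ± 0.374 and 3.05 ± 0.306 in the same order. In each of these 3 ratios the 6 libraries with IFNa lay above the other 6, while S100A11 relative to S100A10 (0.73 ± 0.0425, 0.725 ± 0.0661, 0.818 ± 0.11 and 0.912 ± 0.0632) did not separate them, 2 IFNa libraries lying below the highest DMSO library, and S100A8 relative to S100A9 (0.0944 ± 0.0141, 0.0882 ± 0.00865, 0.10 ± 0.0159 and 0.105 ± 0.0134) had overlapping groups.

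**Figure D2:**
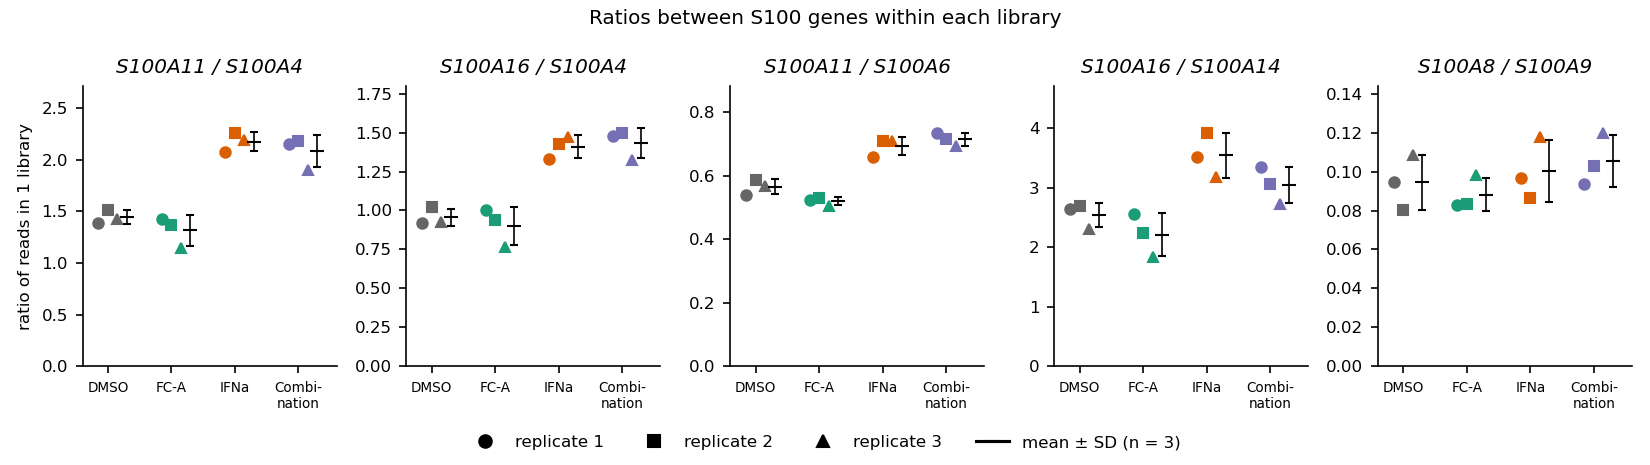
Ratio of the reads of 2 S100 genes within each library (vertical axes, each from 0) for 5 pairs, by treatment, with a symbol for each replicate and the mean ± SD (n = 3). S100A11 over S100A4 lies between 1.9 and 2.26 in the 6 libraries that received IFNa and between 1.15 and 1.52 in the others.

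The sizes above depend on scaling, because the normalized reads of all genes summed to 36271212 to 37624779 in the 6 libraries with IFNa and to 31691975 to 32728638 in the 6 without. Reads of the 10 genes summed to 95362 ± 3861 in DMSO and 106609.7 ± 685 with IFNa, yet their share of the library was 0.294% ± 0.0109 and 0.288% ± 0.00602, and 0.301% ± 0.00567 with FC-A and 0.298% ± 0.0137 in the Combination. Scaling to equal library totals, an alternative chosen after seeing the data, moved the median of all genes for IFNa against DMSO to -0.20, and quantile normalization moved it to -0.10. For the Combination these medians were -0.20 and -0.11 against DMSO and -0.21 and -0.11 against FC-A. Of the genes called, 54.2% were higher with the deposited size factors, 25.5% with library totals and 36.6% after quantile normalization. S100A11 kept a positive value of 0.18 with library totals (adjusted p = 0.00204) and 0.087 after quantile normalization (adjusted p = 0.0986, call lost), or 0.38 and 0.19 above the median of all genes. S100A16 kept 0.15 (adjusted p = 0.0222) and 0.10 (adjusted p = 0.106, call lost), or 0.35 and 0.20 above the median. S100A4 moved further down, to -0.41 with library totals (adjusted p = 7.45e-04) and -0.46 after quantile normalization (adjusted p = 8.81e-04), -0.21 and -0.36 from the median. The Combination calls of S100A11 and S100A16, against DMSO and against FC-A, were kept under each of the 26 alternatives.

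**Figure D3:**
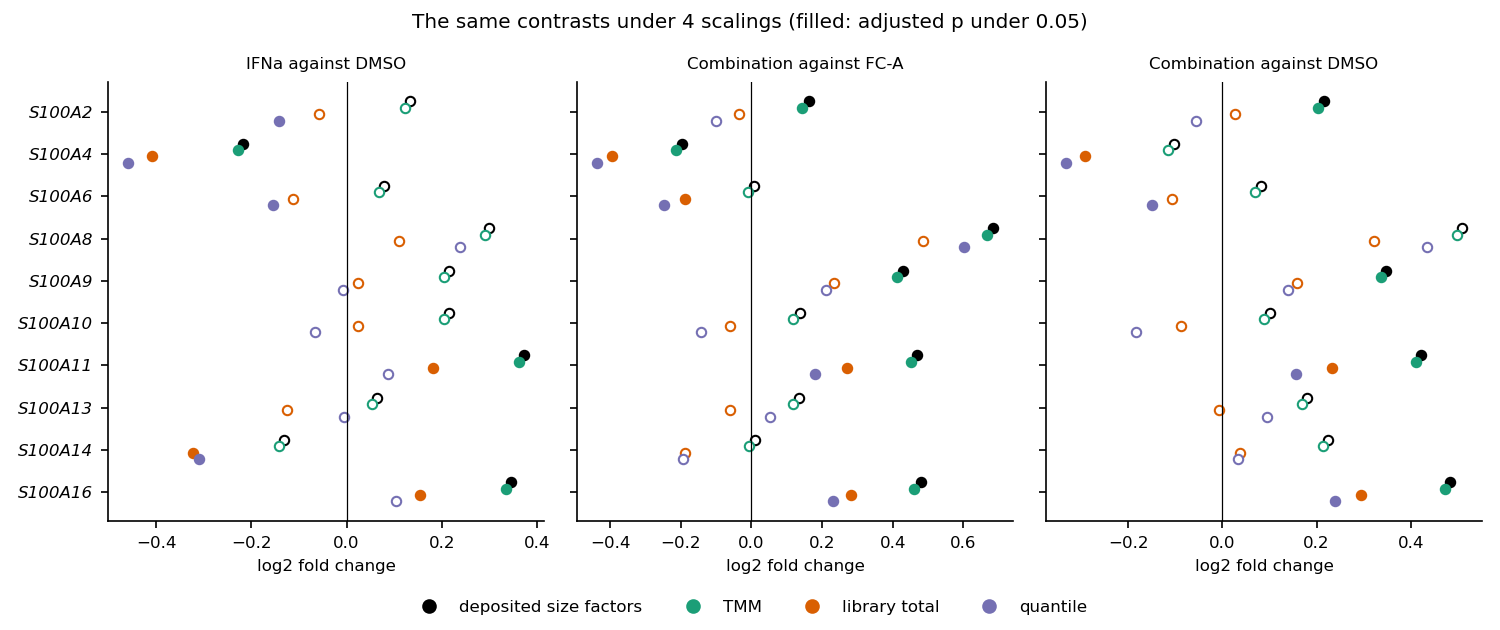
Log2 fold changes of the 10 S100 genes (horizontal axes) for IFNa against DMSO, the Combination against FC-A and the Combination against DMSO under 4 scalings, with filled symbols for an adjusted p under 0.05. S100A11 and S100A16 stay above 0 and S100A4 below 0 in each scaling, while S100A2, S100A6, S100A10 and S100A13 cross 0 in each contrast drawn, S100A9 in that of IFNa with DMSO and S100A14 in that of the Combination with FC-A.

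S100A8 and S100A9, the calprotectin pair that binds zinc as well as calcium, passed the test for the Combination against FC-A and not for IFNa against DMSO, and their libraries were widely spread. S100A8 read 529.7, 444 and 661 in DMSO, 414, 446 and 583 with FC-A, 612, 502 and 946 with IFNa and 622, 675 and 1069 in the Combination. S100A9 read 5605, 5528 and 6089 in DMSO, 5006, 5339 and 5941 with FC-A, 6336, 5797 and 8034 with IFNa and 6639, 6575 and 8905 in the Combination. Replicate 3 was the highest library of each group for both genes. IFNa against DMSO called neither, at 0.30 for S100A8 (95% interval -0.20 to 0.80, adjusted p = 0.316) and 0.21 for S100A9 (-0.048 to 0.48, adjusted p = 0.167). Both were called once the replicate number entered the limma fit as a block (adjusted p = 0.011 and 0.00518). That fit called 8619 of all 15990 genes. The Combination against FC-A called both, with a log2 fold change of 0.68 (SE 0.235, adjusted p = 0.0265) for S100A8 and a log2 fold change of 0.43 (SE 0.122, adjusted p = 0.0097) for S100A9, and the groups did not overlap. Against DMSO the Combination called S100A9, at 0.35 (adjusted p = 0.0302) with no overlap, while S100A8 stood at 0.51 (adjusted p = 0.0888). In all, the Combination called 4 S100 genes higher than DMSO beside 26.1% of all genes, and 0 lower beside 22.2% (limma; 0 also at an unadjusted p under 0.05, and 0 in edgeR and DESeq2). Under the library-total and quantile scalings there were fewer higher calls and some lower ones. With library totals 2 members were higher and 1 lower, S100A4 (-0.29, adjusted p = 0.00701 in limma). That scaling called 2537 of all 15990 genes higher and 6986 lower. After quantile normalization 2 members were higher and 2 lower, S100A4 (-0.33, 0.0076) and S100A6 (-0.15, 0.0376). There 3072 of all 15990 genes were called higher and 5479 lower. S100A4 was also called lower without Combination replicate 3 (-0.19, adjusted p = 0.0447). Against FC-A it called 5 higher beside 26.6% and 1 lower beside 22.3%. The median log2 fold change of the 10 genes was 0.22 and 0.15 in these contrasts, beside -0.010 and -0.0090 for all genes.

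Some of these calprotectin calls rested on single libraries. Without Combination replicate 3 the S100A8 value against FC-A was 0.44 (adjusted p = 0.128), and the call was also lost without FC-A replicate 1 (adjusted p = 0.0808) or FC-A replicate 2 (0.0822). The S100A9 call against DMSO was lost without Combination replicate 3 (log2 fold change 0.20, adjusted p = 0.148), DMSO replicate 1 (0.0818) or DMSO replicate 2 (0.0887). The S100A9 call against FC-A was kept in 12 of 12 left-out fits. With library totals the S100A8 value against FC-A was 0.49 (adjusted p = 0.103) and the S100A9 value 0.23 (0.142), and after quantile normalization S100A9 was 0.21 (0.208). DESeq2 did not call S100A8 for this contrast (adjusted p = 0.0586). Against DMSO the S100A9 call was also lost with library totals (0.16, adjusted p = 0.314), after quantile normalization (0.14, 0.406) and with no variance trend (adjusted p = 0.0722).

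Of 19 leukocyte and myeloid markers, 10 were listed among the genes and 3 reached a mean of 10 normalized reads. Those 3 were PTPRC (CD45), CD14 and CSF1R. PTPRC ranged from 4.74 to 23.5 normalized reads over the 12 libraries. LYZ (lysozyme), not among the 3, ranged from 0 to 4.27. Both lay far below the summed level of the list, so other listed markers made up most of it. The summed level of the listed markers ran from 245 to 282 in DMSO, 258 to 305 with FC-A, 203 to 307 with IFNa and 237 to 324 in the Combination. The groups overlapped in this sum. Whether such cells contributed to the S100A8 and S100A9 reads was not tested. In bulk RNA, fewer cells of a type and less RNA per cell cannot be told apart.

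S100A2, S100A6, S100A10, S100A13 and S100A14 were not called for IFNa against DMSO without the replicate number in the fit. With it as a block in limma, S100A10 (adjusted p = 0.00155) and S100A2 (0.0115) were called higher and S100A14 (0.046) lower. That fit called 8619 of all 15990 genes. S100A2, an S100 first described as lost in some carcinomas and linked to p53, read 16696, 15407 and 15639.9 in DMSO, 17731, 16105 and 15724 with FC-A, 17836, 17415 and 17103 with IFNa and 18871, 17706 and 18852 in the Combination. The IFNa and DMSO libraries did not overlap, at 0.13 (adjusted p = 0.0554), and the Combination was called against DMSO at 0.22 (adjusted p = 0.00442) and against FC-A at 0.16 (0.0222). These directions depended on scaling: the 3 values became -0.14, -0.056 and -0.10 after quantile normalization, and -0.057, 0.027 and -0.035 with library totals. The call against FC-A was also lost without Combination replicate 1, Combination replicate 3, FC-A replicate 2 or FC-A replicate 3 (adjusted p from 0.0637 to 0.0819).

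S100A6 read between 21147 and 24983 over the 12 libraries, with group means of 22322 ± 1429, 23449 ± 505, 23552 ± 545 and 23602 ± 1212 for DMSO, FC-A, IFNa and the Combination. IFNa against DMSO gave 0.079 (95% interval -0.038 to 0.20), a value that was -0.11 with library totals and -0.15 after quantile normalization. S100A10, which with annexin A2 forms a surface complex that holds plasminogen and its activator, had means of 17294 ± 1210.0, 16932 ± 2160.1, 20142 ± 2306 and 18531 ± 854, and IFNa against DMSO gave 0.22 (adjusted p = 0.0745), which was -0.067 after quantile normalization. Its IFNa libraries read 20972, 21918 and 17535 and replicate 3 was its lowest library in every group. Without IFNa replicate 3 the contrast was 0.31 (adjusted p = 0.0113). S100A13, which takes part in the export of fibroblast growth factor 1, had means of 644 ± 42.8, 664 ± 30.5, 679 ± 109 and 729 ± 15.5 and no call in any contrast. Its Combination libraries (745, 714 and 728) lay above its DMSO libraries (680.2, 597 and 656), with 0.18 (adjusted p = 0.137), a value that was -0.0081 with library totals.

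**Figure D4:**
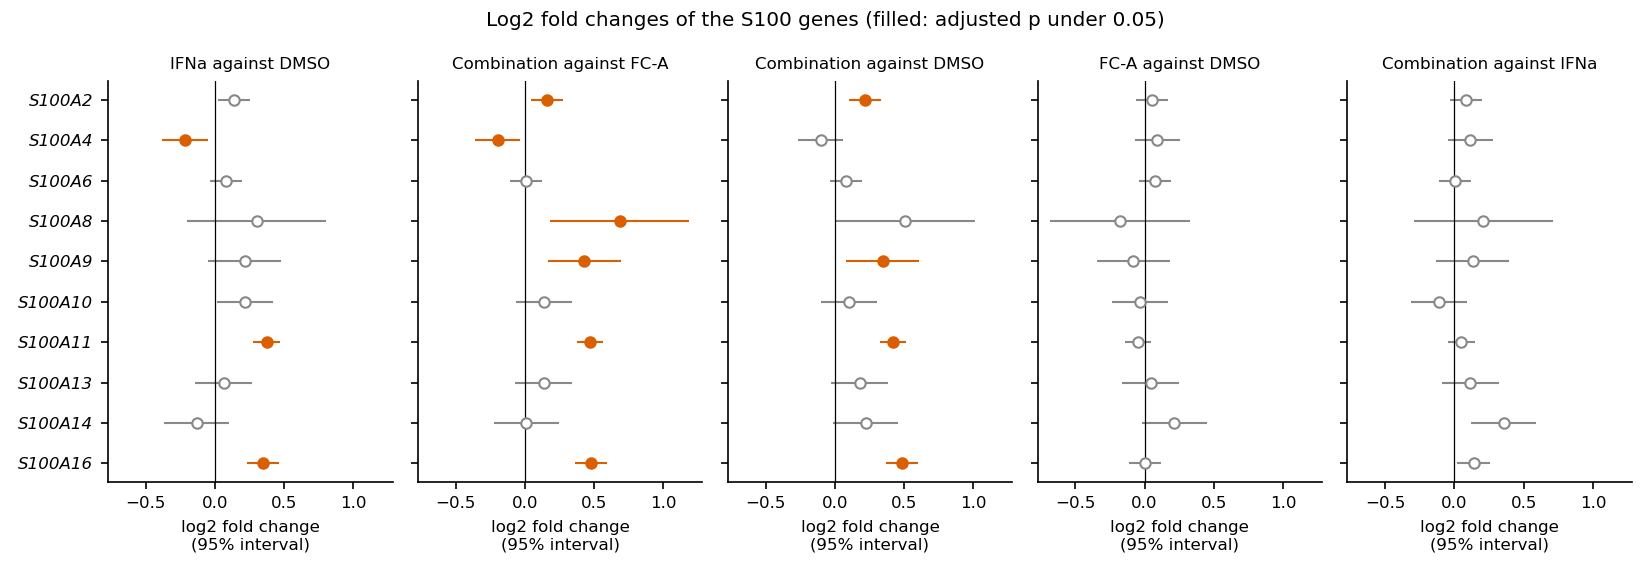
Log2 fold change with its 95% interval (horizontal axes) for each of the 10 S100 genes in 5 contrasts, with filled symbols for an adjusted p under 0.05. IFNa against DMSO holds 3 filled symbols, the Combination 6 against FC-A and 4 against DMSO, and the 2 contrasts of FC-A hold none. All values drawn use the deposited size factors. S100A2 is above 0 in each panel, and its negative values after quantile normalization are not drawn here.

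FC-A alone called 0 of the 10 S100 genes, where 0.3% of all genes (48 of 15990) were called. No member reached an unadjusted p under 0.05 in limma, and edgeR, DESeq2 and the authors' deposited table also called 0. S100A11 stood at -0.048 (95% interval -0.14 to 0.048), S100A16 at 0.0037 (-0.11 to 0.12) and S100A4 at 0.093 (-0.071 to 0.26). S100A8 was the least well bounded, at -0.18 with an interval of -0.68 to 0.33. The highest value was that of S100A14, an S100 of epithelial cells that can be secreted, which read 3237, 3098 and 3501 in DMSO and 3443, 3733 and 4261 with FC-A. FC-A replicate 1 lay inside the DMSO range. For FC-A against DMSO the log2 fold change was 0.21 (95% interval -0.02 to 0.45, adjusted p = 0.625). With the replicate number as a block in limma, S100A14 was called higher (adjusted p = 0.0485). That fit called 289 of all 15990 genes for this contrast. IFNa alone gave -0.13 for S100A14 against DMSO (adjusted p = 0.345), which was -0.32 with library totals (adjusted p = 0.0323, called).

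Adding FC-A to IFNa also called 0 of the 10, where 0.331% of all genes (53) were called. In limma, 2 members had an unadjusted p under 0.05, S100A14 and S100A16, and edgeR, DESeq2 and the authors' deposited table called 0. S100A14 read 2899.6, 2629.9 and 3504 with IFNa and 3489, 3638 and 4414 in the Combination, where IFNa replicate 3 lay above the lowest Combination library. The log2 fold change was 0.36 (SE 0.109, 95% interval 0.12 to 0.59, adjusted p = 0.208). Without IFNa replicate 3 it was 0.47 (adjusted p = 0.0322), and without replicate 3 of every group 0.37 (0.0027). With the replicate number as a block in limma, S100A14 was called higher (adjusted p = 0.00105). That fit called 1009 of all 15990 genes for this contrast. S100A16 did not overlap between these groups, at 0.14 (adjusted p = 0.311). S100A11 gave 0.049 with an interval of -0.048 to 0.14. The interaction, which asks whether the FC-A effect with IFNa differs from that without it, called 0 members and 0.0% of all genes with limma. No member reached an unadjusted p under 0.05 for it, though 627 of all genes did, and DESeq2 called 3 genes, none of them an S100 gene. The interaction estimate was 0.14 for S100A14 (-0.19 to 0.47), 0.13 for S100A16 (-0.03 to 0.30) and 0.38 for S100A8 (-0.33 to 1.10), so differences of these widths were not resolved with 3 libraries a group.

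In 4 of the 10 members replicate 3 had the same rank in every group, and in the other 6 it did not. Replicate 3 was the highest library of every group for S100A8, S100A9 and S100A14, 3 of 10 members, against 9.04% of all genes tested, and the lowest of every group for S100A10, against 12.4%. S100A8 in replicate 3 was 1.23, 1.22, 1.43 and 1.40 times its group mean in DMSO, FC-A, IFNa and the Combination. After removal of the group means, S100A8 and S100A14 correlated at r = 0.982 over the 12 libraries, S100A9 and S100A14 at 0.972, and S100A8 and S100A9 at 0.966. S100A10 ran opposite to S100A14 at r = -0.89, and S100A11 and S100A16 correlated at 0.893. These are descriptions over 12 libraries that share their replicate numbers and depth, and are given without a test. Without replicate 3 of every group, S100A8 was called for the Combination against DMSO at 0.42 (adjusted p = 0.00444), S100A10 for IFNa at 0.26 (0.0019) and S100A14 for IFNa at -0.20 (0.0109). What sets replicate 3 apart was not tested.

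**Figure D5:**
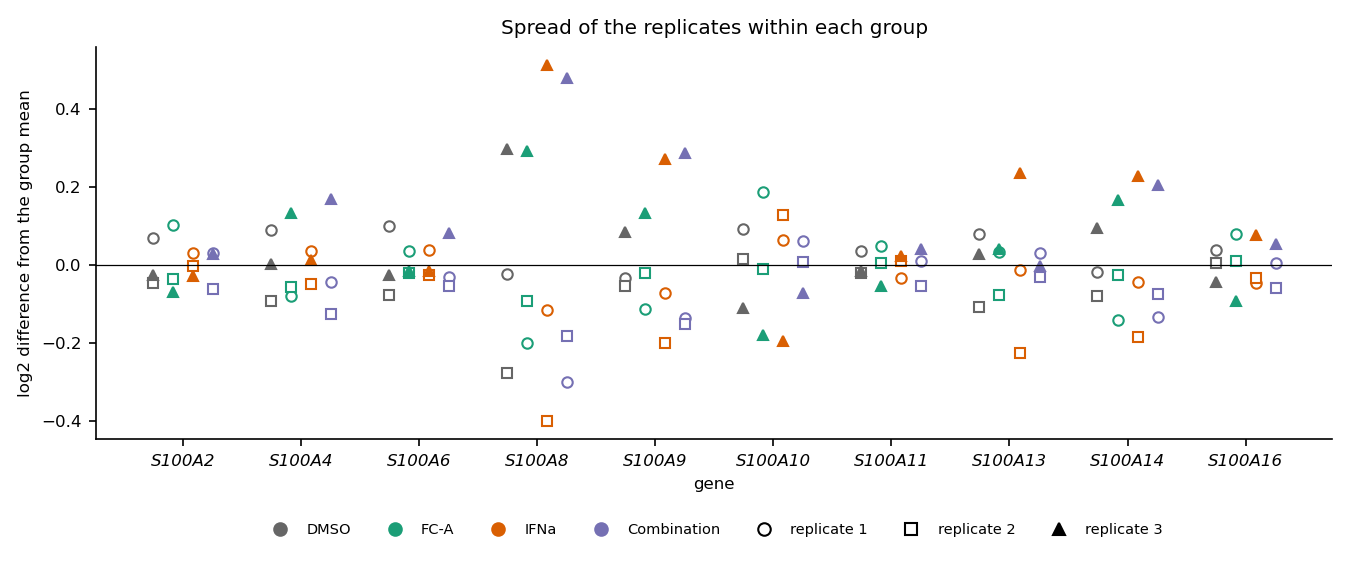
Log2 difference of each library from the mean of its group (vertical axis) for the 10 S100 genes (horizontal axis), coloured by treatment, with filled triangles for replicate 3. For S100A8, S100A9 and S100A14 the 4 triangles lie above the other symbols of their groups, and for S100A10 they lie below.

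Of 11 further S100 genes, 8 were listed and 5 were abundant enough to test. S100A3, a neighbour of S100A4 that overlaps it on the same strand in GENCODE v29, rose with IFNa from 171 ± 3.99 to 244 ± 71.5 normalized reads (0.47, adjusted p = 0.023) and read 276 ± 33.3 in the Combination, so the S100A3 and S100A4 estimates went opposite ways. With library totals no S100 gene of this list was called higher for IFNa against DMSO, and 1 was called lower. That scaling called 2386 of all 15990 genes higher and 6961 lower. S100A1 averaged 276 ± 33.3 in DMSO, S100A5 43.1 ± 2.77, S100A7 (psoriasin) 18.7 ± 8.06 and S100P 33.6 ± 8.65, and none of these 4 was called in any contrast. S100A7A, S100A12 and S100Z had at most 13.9 normalized reads in any library.

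Of 11 annexins tested, the membrane-binding targets of several S100 dimers, 2 rose with IFNa and 3 fell, with a median of 0.061. Among all genes tested, 25.4% were called higher and 21.5% lower. ANXA2, the S100A10 and S100A11 partner, averaged 188961 ± 4602 in DMSO and 203845 ± 13418 with IFNa (0.11, adjusted p = 0.199). ANXA1, a partner of S100A11, read 10188 ± 544 and 11232 ± 984 and was not called for IFNa. ANXA3 rose by 0.74 on the log2 scale (SE 0.216) and ANXA4 by 0.23, whereas ANXA6, which binds several S100 proteins, fell from 1049 ± 27 to 758 ± 19.8 reads (-0.47, adjusted p = 4.43e-05). With library totals 1 annexin rose and 6 fell, where 2386 of all 15990 genes were called higher and 6961 lower. After quantile normalization 1 rose and 5 fell, where 2975 of all genes were called higher and 5157 lower.

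Of 8 tested receptors and surface partners, 0 rose and 3 fell with IFNa, beside 25.4% and 21.5% of all genes tested. Those that fell were FGFR1, a growth factor receptor, from 1873 ± 29.3 to 1226 ± 86.9, ALCAM, an adhesion molecule bound by S100B, from 2734 ± 78.7 to 2289.6 ± 153, and CD36, which takes up fatty acids carried by S100A8 and S100A9, from 24.1 ± 8.09 to 9.24 ± 4.0. Under the other 3 scalings 0 also rose, and 3 or 4 fell. Those scalings called 2386 to 3944 of all 15990 genes higher and 3584 to 6961 lower. AGER, the receptor for advanced glycation end products, averaged 198 ± 13.4 in DMSO and 191 ± 56.3 with IFNa, and BSG (basigin, an S100A9 receptor) 12751 ± 343 and 12690.3 ± 307.

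Of 23 intracellular partners other than annexins, 8 rose and 3 fell with IFNa, with a median of 0.046, beside 25.4% and 21.5% of all genes tested. The plasminogen activators and their receptor, which meet S100A10 at the cell surface, were the 3 largest rises: PLAUR rose from 999 ± 63.2 to 4278 ± 571 reads (2.09, adjusted p = 3.08e-09), PLAU from 17290.1 ± 539.7 to 45150.4 ± 1670.2 and PLAT from 1495 ± 35.3 to 3722 ± 755. AHNAK, the giant scaffold bound by S100A10 with annexin A2, averaged 46419 ± 3294 and 39539 ± 6761 and was not called, and MYH9, the myosin heavy chain bound by S100A4, averaged 43837 ± 3345 and 54893 ± 9945 and was not called either. SYT1, which joins S100A13 in the export complex of fibroblast growth factor 1, fell in each of the pairwise contrasts, with FC-A alone (-0.40, SE 0.0707, adjusted p = 0.0315), with IFNa (-0.44) and in the Combination against IFNa (-0.50, adjusted p = 0.00926). With library totals and after quantile normalization, 6 of the 23 rose with IFNa and 7 and 6 fell. In the same order, 2386 and 2975 of all 15990 genes were called higher and 6961 and 5157 lower.

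Among 21 calmodulins and other EF-hand proteins, 3 rose and 3 fell with IFNa, beside 25.4% and 21.5% of all genes tested. With library totals and after quantile normalization the split was 1 and 10, where 6961 and 5157 of all 15990 genes were called lower. GCA (grancalcin) rose from 545 ± 37.3 to 778 ± 13 and CALML5, a calmodulin-like protein of the epidermis, fell from 19.4 ± 4.01 to 5.9 ± 2.94. FLG, the epidermal barrier protein filaggrin, which carries an S100-like EF-hand region, was lower in the Combination (2217 ± 57.1) than with IFNa (3682 ± 269; -0.73, adjusted p = 0.00292). Of 24 further genes of the epidermal differentiation complex and its edges, 6 were listed and only THEM4, next to S100A10, was abundant enough to test, and it fell from 749.8 ± 36.3 to 541 ± 65.9 with IFNa (-0.48, adjusted p = 2.10e-04). THEM4 and S100A11 flank S100A10, so neighbours on either side of it moved in opposite directions.

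All 17 tested regulators linked to S100A8 and S100A9 transcription rose with IFNa, with a median of 1.18, and 16 of 17 rose with library totals. Among them the cytokine IL6 went from 30.1 ± 13.8 to 314 ± 94.5 reads and FOSL1, a subunit of AP-1, from 164 ± 23.7 to 1806 ± 92.2. The list was written with earlier results of these data known, so its direction is not independent evidence. The S100A8 and S100A9 contrasts of IFNa with DMSO were uncalled at 0.30 and 0.21, without the replicate number as a block. All 30 type I interferon-stimulated genes rose, with a median log2 fold change of 6.18 in the same contrast, beside 0.37 for S100A11.

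Over the 12 libraries, which fall into 6 with and 6 without IFNa, the genes most like S100A11 by Pearson correlation of log2 values were TMEM50A (r = 0.995), MAX (0.994) and TNIP1 (0.993). Those most like S100A16 were STX6 (0.992), KRT6B (0.988) and RAP2C (0.983). S100A8 was followed most closely by VTCN1 (0.975), SYT12 (0.954) and SULF2 (0.953), and S100A9 by AGR2 (0.975), WIPI1 (0.974) and again VTCN1 (0.972). For S100A4 they were FTL (0.948), AHNAK2 (0.942) and PPARA (0.94), and for S100A2 RFK (0.947), CCDC117 (0.945) and EPHB2 (0.944). The nearest genes of S100A8 and S100A9 shared VTCN1, and the 3 nearest to S100A11 were not among the 3 nearest to S100A16.

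The 12 ovarian epithelial markers were all listed and tested, and summed to 457866 to 472851 normalized reads in DMSO, 423462 to 501247 with FC-A, 442762 to 494294 with IFNa and 480312 to 519124 in the Combination, where the DMSO and Combination ranges did not overlap. EPCAM averaged 8917 ± 64.7 in DMSO and 8876 ± 398 with IFNa, and of the 12 markers 2 rose and 2 fell with IFNa, against 0 and 5 with library totals or after quantile normalization. Fibroblast markers, relevant because S100A4 also marks stroma, summed to 1089 to 1156 in DMSO, 1247 to 1286 with FC-A, 1632 to 2163 with IFNa and 1809.8 to 2448 in the Combination, and COL1A1, most of this sum, rose from 815 ± 40.9 to 1676 ± 278 with IFNa. Of the 3 fibroblast markers tested 1 rose and 1 fell, COL1A2 at -0.81 (adjusted p = 0.00441), and FAP was not called. THY1 averaged 8.22 ± 4.42 in DMSO, DCN (decorin) did not exceed 1.9 normalized reads in any library, and no marker of these lists was at 0 in all 12. Keratinocyte and squamous markers summed to 45469.5 to 49292 in DMSO, 43867 to 47883 with FC-A, 47921 to 50529.5 with IFNa and 46245 to 52410.3 in the Combination, with 2 rising and 5 falling of 7 tested, and endothelial markers to 681 to 746, 722 to 740.4, 576 to 725 and 667 to 674, with 0 rising and 2 falling of 4 tested. Beside these list counts, IFNa called 25.4% of all genes tested higher and 21.5% lower. With library totals 2386 of all 15990 genes were higher and 6961 lower, and after quantile normalization 2975 and 5157. The part of these markers in the S100 values was not tested. Without strand-aware counting being stated in the sources used here, reads of S100A11 and S100A6 cannot be told from the antisense genes annotated over them, nor those of S100A13 from S100A1 on the opposite strand, and S100A11 has processed pseudogenes that could share its reads.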

How the data were processed

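RNA was measured in 12 OVCAR-3 libraries, 3 for each of 4 treatments at 6 h, grouped by the labels. Per the labels' protocols, 100 ng of total RNA went into a stranded poly(A) library kit. Per the submitters' processing notes, the build was hg19 and the tools included STAR 2.7.3 and, for the statistics, DESeq2 1.24.0 (also bcl2fastq 2.20 and FastQC); the counting program, its strand setting and the annotation are not named there. The deposited signal values are gene counts that the authors divided by 1 size factor per library. Whole reads were recovered from them for 100% of values (within 0.01 of a whole number). The authors' deposited tables give a log2 fold change with its SE, a Wald score, a p-value and an adjusted p-value per gene and comparison, made with DESeq2 per the processing notes and the file headers, and served here as an alternative.

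Values were tested as log2(value + 1), a scale on which changes of low genes are understated, for the 15990 genes with a mean of at least 10 (12045 were left out). limma 3.58.1 in R 4.3.3 was fitted to all 12 libraries with 4 group means and a variance trend, two-sided. Contrasts were IFNa, FC-A and the Combination against DMSO, the Combination against IFNa and against FC-A, and the interaction. Contrasts that share a group share its libraries. Called means a Benjamini-Hochberg adjusted p under 0.05 over all genes tested. The procedure was tested on simulated data. Alternatives were edgeR 4.0.16 (quasi-likelihood) and DESeq2 1.42.0 on the recovered reads, other scalings, filters, pseudocounts, no trend, only the groups compared, the replicate number as a block and left-out libraries. On the recovered reads edgeR called 7533 genes for IFNa against DMSO, where limma called 7507.

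The 10 members, the gene lists and the alternatives were chosen with earlier results of these data known. All members are named in the report, with the 3 genes most correlated with the members the results turn on, and from each list the called genes with the largest changes (up to 3 a direction) and those with a stated partner or receptor role. Other genes named, among them the remaining S100 genes and single markers, are there to account for their lists. Promoter sequences came from RefSeq (GRCh38.p14).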

Additional observations from a re-analysis of the deposited data

How the results depend on the processing

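Over all 6 contrasts, 1540 member values were recomputed under alternatives: 1452 stayed on their side of the threshold, 50 of these being uncalled both ways with the other sign, while 42 lost a call, 38 gained one and 8 reversed. The reversed values were those of S100A2 and S100A6, and their cause was not tested. After quantile normalization S100A2 was -0.14 for IFNa against DMSO, -0.056 for the Combination against DMSO and -0.10 against FC-A, and S100A6 was -0.15, -0.15 and -0.25. With library totals, chosen after seeing the data, the Combination against FC-A gave -0.035 for S100A2 and -0.19 for S100A6. Library totals moved the share of calls that were higher to 26.6% for the Combination against DMSO (53.9% in limma as reported) and 26.3% against FC-A (54.4%), and quantile normalization to 35.9% and 36.5%.

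The number of S100 genes called for IFNa against DMSO went from 3 to 5 with only the groups compared and to 5 without replicate 3 of every group, and ran from 2 to 5 with single libraries left out. All genes called went from 7507 to 7900 and 7580 of 15990, and ran from 6183 to 7781 in the left-out fits. For the Combination against DMSO the number of S100 genes went from 4 to 7 with only the groups compared and to 7 without replicate 3. All genes called went from 7724 to 8412 and 7678 of 15990. For the Combination against IFNa the number of S100 genes went from 0 to 1 without replicate 3 of every group (S100A14; all genes 53 and 1187). With single libraries left out it ran from 0 to 1 (all genes 4 to 510). For the Combination against FC-A the left-out counts of S100 genes ran from 3 to 6 (all genes 6664 to 8122). The authors' deposited table called 3, 0, 5, 0 and 4 members for IFNa, FC-A and the Combination against DMSO and the Combination against IFNa and FC-A. Of all genes with an adjusted p there, it called 7291 of 20425, 155 of 13903, 7640 of 19782, 231 of 13360 and 7617 of 20425 in the same order.

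Samples with the same replicate number in different groups deviated together with r from 0.0176 to 0.395, over 0.1 in 10 of 18 pairs. Pairs of replicate 3 ran from 0.188 to 0.395. Pairs of other numbers ran from -0.354 to 0.257, over 0.1 in 4 of 36. The replicate numbers therefore carried some shared variation. The labels name no batch or pairing, and the fit reported above did not use the numbers. With the replicate block the member counts were 8 for IFNa against DMSO (S100A8, adjusted p = 0.011, and S100A9, 0.00518, among them), where 8619 of all 15990 genes were called, 1 for FC-A against DMSO (S100A14, adjusted p = 0.0485 in limma), 7 for the Combination against DMSO (all genes 8859) and 7 against FC-A (all genes 8910). For the Combination against IFNa the count was 1 (S100A14, adjusted p = 0.00105 in limma, all genes 1009).

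Counts over all genes moved by over 1.5 times for the contrasts of FC-A. FC-A against DMSO called 48 genes in limma, 155 in DESeq2, 289 with the block, 134 without replicate 3 of every group, 20 without the variance trend, 26 with only the groups compared and 16 to 119 with single libraries left out. The Combination against IFNa called 53, and 231, 1009, 1187, 11, 10 and 4 to 510 under the same choices, with 510 reached without IFNa replicate 3. The interaction called 0 in limma and edgeR and 3 in DESeq2.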
